A study of Mus musculus with 69 samples.

Results

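Ribosome-associated mRNA of parvalbumin (PV) interneurons was compared with that of Camk2a-expressing excitatory neurons in primary visual cortex (V1) of mice that lack the fragile X protein FMRP (Fmr1 KO). The comparison took every Fmr1 KO library labelled V1. These were 10 libraries with a P animal code (PV-Cre) and 6 with a C animal code (Camk2a-Cre), 16 of the 69 libraries of the study, and no measured value entered the choice. All mice carried Rpl22HA/HA, an allele of a ribosomal protein gene that Cre recombination switches to a form with an HA tag, and were 70 to 100 days old. Tagged ribosomes were pulled from homogenate of dissected tissue with an anti-HA antibody, and the bound mRNA was sequenced after amplification with no molecular identifiers. Cre was driven by the Pvalb promoter in the PV group and by the Camk2a promoter in the other. Either driver acts in every cell that expresses it, so the Camk2a group pools excitatory neurons of the dissected cortex without regard to layer. The PV group held 5 male and 5 female mice and the Camk2a group 2 male and 4 female mice by their labels, and all 16 libraries carried the label of a single batch. Wild-type (WT) V1 (10 PV and 8 Camk2a libraries) and Fmr1 KO somatosensory cortex, S1 (10 PV and 7 Camk2a libraries), served to ask whether a class difference depended on genotype or area. WT V1 also served to check the genotype labels. The PV libraries of WT V1 and 10 PV libraries of WT S1 (5 male, 5 female) set an area score.

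PV interneurons are fast-spiking GABAergic cells that inhibit pyramidal neurons at the soma and axon initial segment. They are known for short action potentials carried by Kv3 potassium channels, for fast synchronous transmitter release, for a high energy demand and for a net of extracellular matrix around the soma. Camk2a marks glutamatergic pyramidal neurons, whose dendritic spines are rich in calcium/calmodulin-dependent kinase II. FMRP, the product of Fmr1, is an RNA-binding protein that represses translation of many synaptic mRNAs, and its loss causes fragile X syndrome in people. RiboTag recovers ribosome-bound mRNA and so reads neither total mRNA nor protein, and in such bulk material fewer cells of a type and less mRNA per cell cannot be told apart.

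The estimated counts of a library summed to 34.21 to 46.8 M in the PV group and to 39.45 to 49.11 M in the Camk2a group (M, mega). Levels are given below as counts per M counts of the library (CPM), scaled by the trimmed mean of M-values (TMM), and differences as the log2 fold change of PV over Camk2a with its standard error (SE). The Fmr1 transcript checked the genotype labels: it lay at 10.3 CPM ± 2 (SD, n = 10) in PV KO and 8.48 ± 1.54 (SD, n = 6) in Camk2a KO libraries, against 43.1 ± 3.97 (SD, n = 10) and 84.9 ± 7.51 (SD, n = 8) in the WT libraries of V1. One Camk2a library, from the animal coded C3, stood apart. Its summed level over 20 PV interneuron markers was 857.3 CPM, against 304.1 to 376.5 CPM in the other 5 Camk2a libraries and 10610 to 13440 CPM in the PV libraries, and each difference that moved by over 1.5 times without C3 is given both ways. Y-linked genes went against the labelled sex in 1 of the 10 PV KO libraries of V1 and, among those used for the genotype test, in 2 of the 8 Camk2a WT libraries. An area score used 50 genes per direction, picked by the difference of medians between areas in WT PV libraries and centred between the areas. By it the PV KO libraries P9 (-1.12) and P24 (-1.06) of V1 lay on the S1 side and the other 8 on the V1 side (0.3 to 1.58). Leaving P9 and P24 out gave 12258 differing genes in place of 12467. In S1, P9 lay on the V1 side (0.05) and P24 on the S1 side (-0.74). The score did not separate all WT PV libraries either. P22 of WT lay on the S1 side in V1 (-1.77) and on the V1 side in S1 (0.07). Without its V1 library the genotype test below called 17 genes in place of 16. The cause of these placements was not tested.

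Most of the transcriptome differed between the classes. Of 16788 genes tested, 12467 (74.3%) passed an adjusted p of 0.05, 6434 (38.3%) higher in PV and 6033 (35.9%) higher in Camk2a libraries. With a test against a 2-fold difference in place of none, 3803 genes (22.7%) passed, 1947 (11.6%) higher in PV and 1856 (11.1%) higher in Camk2a libraries. In 7523 genes (44.8%) every library of one class lay above every library of the other. The median log2 fold change over all genes was 0.04 and the standard deviation across genes 1.34. Scaling by library totals alone moved that median by 0.12 and raised the share of calls higher in PV from 51.6% to 59.3%. Without C3, 12087 of 16916 genes tested (71.5%) passed the plain test and 3681 of the 16916 (21.8%) the 2-fold test, and 3569 of the 3803 beyond 2-fold were called again. Counts of gene lists below are to be read against these shares, since 3 in 4 genes passed the plain test.

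**Figure D1:**
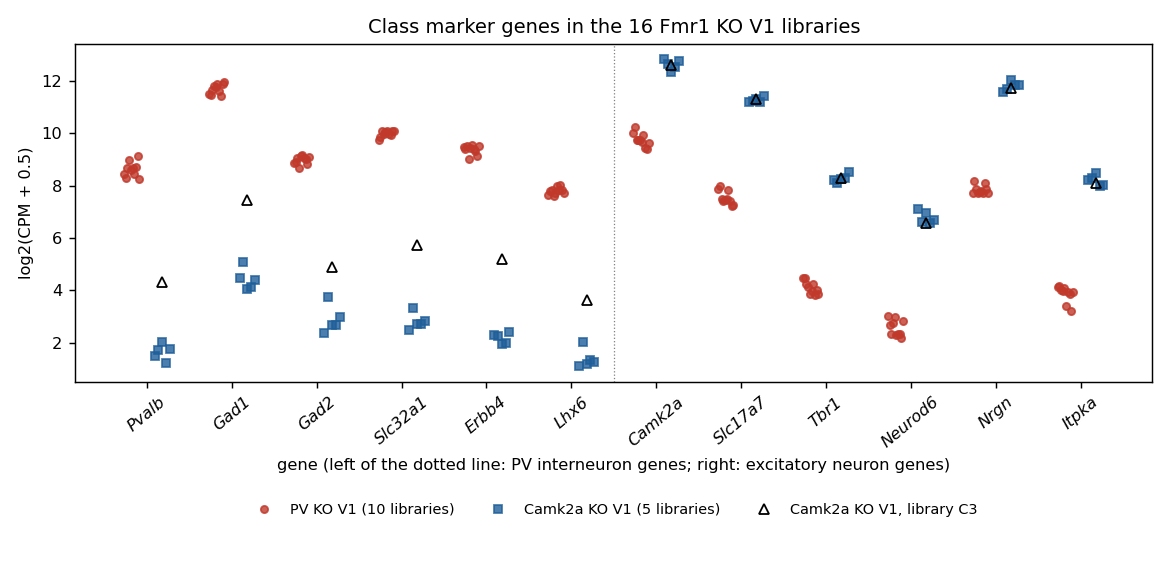
Level, as log2(CPM + 0.5), of 6 PV interneuron genes and 6 excitatory neuron genes in each Fmr1 KO V1 library (red circles, 10 PV libraries; blue squares, 5 Camk2a libraries; open triangles, the Camk2a library C3). The classes lie apart for every gene shown, and C3 is the highest Camk2a library for the PV genes, with 19.3 CPM of Pvalb and 174 CPM of Gad1, but not apart for the excitatory genes.

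All 20 PV interneuron markers were higher in PV libraries, each beyond 2-fold, with a median log2 fold change of 5.84 (6.74 without C3). Pvalb, the calcium buffer that names the class and whose promoter drove Cre here, ranged from 308 to 559 CPM with a median of 400 in PV libraries and from 1.84 to 19.3 CPM with a median of 2.84 in Camk2a libraries. The highest Camk2a value was that of C3 and the next was 3.53 CPM, so that the groups lay far apart. The log2 fold change was 6.29 (SE 0.55, adjusted p = 1.19e-07 by edgeR's quasi-likelihood test) and rose to 7.31 without C3. Gad1, the main enzyme of GABA synthesis, ranged from 2738 to 3941 CPM (median 3376) in PV and from 15.8 to 174 CPM (median 21.1) in Camk2a libraries. Its log2 fold change was 6.33 (SE 0.59, adjusted p = 2.52e-07), and 7.29 without C3, whose 174 CPM compares with at most 33 CPM in the other Camk2a libraries. Lhx6, a transcription factor of interneurons born in the medial ganglionic eminence, differed by 5.92, and Tac1, the precursor of substance P, by 5.66 (6.74 and 6.95 without C3). Among genes with a mean of at least 5 CPM, the largest log2 fold changes toward PV were those of Lrrc38 (6.58), an auxiliary subunit of BK potassium channels, Tmem132c (6.49), Gad1, Erbb4 (6.32), Akr1c18 (6.29), a steroid dehydrogenase, Pvalb, Slc32a1, Wif1 (6.23), a secreted Wnt inhibitor, Mybpc1 (6.23), better known from muscle, and Adamtsl5 (6.18). Without C3 these values ran from 6.98 for Adamtsl5 to 7.83 for Tmem132c.

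All 20 excitatory markers were higher in Camk2a libraries, 16 beyond 2-fold, with a median of -3.64. Their summed level was 1627 to 2451 CPM in PV and 14940 to 17090 CPM in Camk2a libraries. How much of the level in PV libraries came from excitatory cells was not tested. Camk2a, the kinase subunit whose promoter drove Cre, ranged from 676 to 1198 CPM (median 851) in PV and from 5137 to 7258 CPM (median 6272) in Camk2a libraries. The difference was -2.87 (SE 0.1, adjusted p = 4.97e-15). No library of one class reached the range of the other. Slc17a7, which loads glutamate into vesicles, ranged from 150 to 255 CPM in PV and from 2350 to 2767 CPM in Camk2a libraries (log2 fold change -3.73, SE 0.11, adjusted p = 2.22e-16). Tbr1, a transcription factor of deep-layer pyramidal neurons, differed by -4.21, Neurod6 by -4.29 and Itpka, a spine-bound inositol kinase, by -4.32. Ccn3 (-4.91), a secreted matrix protein, was among the genes with the largest differences toward Camk2a. Others among them were Crym (-4.55), Igfbp6 (-4.51), Wnt10a (-4.48), Rgs14 (-4.46), Dkk3 (-4.37), Kcnv1 (-4.37), Nptx2 (-4.33) and Itpka. The most uneven of these genes was Nptx2, an activity-regulated pentraxin, whose Camk2a libraries ran from 43.8 to 265 CPM, still above the PV maximum of 11.2 CPM.

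Markers of other interneurons did not move as a block. Of 16 tested, 3 were higher in PV, 5 were higher in Camk2a and 8 did not pass the test. Their summed level was 207.9 to 317.1 CPM in PV and 856.4 to 1102 CPM in Camk2a libraries, carried by Cck (log2 fold change -3.04) and Lamp5 (-3.98), which excitatory neurons also express. Sst, the defining peptide of another interneuron class, ranged from 11 to 32.3 CPM in PV and from 4.98 to 20.8 CPM in Camk2a libraries, and its difference of 0.61 had an adjusted p of 0.0534. That call depended on the setting, since Sst passed with DESeq2 (adjusted p = 0.0429) and with limma-voom (adjusted p = 0.0236). The ranges of Sst overlapped, and so did those of Reln, an extracellular glycoprotein, at 0.19 (adjusted p = 0.244). Npy (4.14) and Cort (4.85, and 5.72 without C3), peptide genes of several interneuron classes, were higher in PV libraries.

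Markers of non-neuronal cells differed as well. Of 18 astrocyte markers 12 were higher in PV and 4 in Camk2a libraries, of 17 oligodendrocyte markers 15 and 1, of 11 oligodendrocyte precursor markers 9 and 0, of 15 microglial markers 13 and 0, and of 16 vascular markers 12 and 1. Both counts of 0 were also 0 at an unadjusted p under 0.05 by edgeR, and at an adjusted p under 0.05 by DESeq2 and limma-voom. Mbp, a myelin gene, did not pass the test at 0.07 (adjusted p = 0.415). Csf1r, the microglial growth factor receptor, was at 5.91 to 17.9 CPM in PV and at 1.92 to 2.64 CPM in Camk2a libraries. By summed level, oligodendrocyte markers reached 635.9 to 954 CPM in PV against 386.3 to 548.2 CPM in Camk2a libraries, and microglial markers 49.25 to 81.3 CPM against 20.56 to 25.14 CPM. Oligodendrocyte precursor markers summed to 200.1 to 268 CPM against 174.2 to 241 CPM, and vascular markers to 44.52 to 88.39 CPM against 36.51 to 42.99 CPM. Astrocyte markers went the other way by sum, with 704.1 to 1014 CPM in PV and 1062 to 1416 CPM in Camk2a libraries. That sum rested on the glutamate transporter Slc1a2 (-1.17), which was at 654 to 984 CPM in Camk2a libraries. Slc1a2 was not the only astrocyte marker toward Camk2a. Of the 4 called that way 3 were beyond 2-fold, and Aldh1l1 and Atp1b2 were among the 4. The lowest log2 fold change in the astrocyte list was -1.78. None of the non-neuronal markers was at 0 in every library of a class. The part of RNA from these cells in the neuronal differences was not tested.

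The transcription factors of the classes mostly separated by lineage. Of 18 interneuron factors tested, 12 were higher in PV (11 beyond 2-fold) and 3 in Camk2a libraries, with a median of 4.42. Sp9 (6.08), Dlx5 (5.90) and Dlx2 (5.85, and 6.76 without C3), factors of the ganglionic eminences, led them with Lhx6. Sp9 ranged from 33.2 to 44.7 CPM in PV and from 0.224 to 1.7 CPM in Camk2a libraries, with C3 the highest of these and a difference of 6.86 without it. Dlx5 ranged from 34.9 to 48.4 CPM in PV and from 0.179 to 2.33 CPM in Camk2a libraries, and differed by 6.75 without C3. Zeb2, which directs migrating interneurons during development, did not pass the test at 0.17 (adjusted p = 0.0846). Of the 3 interneuron factors higher in Camk2a libraries 1 was beyond 2-fold, and the lowest value in the list was -2.36. The 3 included Etv1 and Mef2c, and Mef2c is also on the list of layer factors. Of 29 factors of cortical layers, 26 were higher in Camk2a (20 beyond 2-fold) and 1 in PV libraries, with a median of -2.64. Bhlhe22, with 2.03 to 4.06 CPM in PV and 39.1 to 67.8 CPM in Camk2a libraries, differed most (-4.31). The exception was Sox5 (0.61, SE 0.077, adjusted p = 4.75e-07), at 43.2 to 52.5 CPM in PV and 25.6 to 38.6 CPM in Camk2a libraries. Cux1, a factor of upper layers, did not pass at -0.10 (adjusted p = 0.238), and neither did Lmo3.

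Promoter sequences of the genes that separate the classes were read from RefSeq on GRCm38.p6, as the 250 bases before the annotated start, for 2 genes of the PV class and for a layer factor. They were searched for TAATTA, the core bound by DLX and LHX homeodomain proteins and its own reverse complement, and for CAGATG or its reverse complement CATCTG, an E-box form bound by NEUROD proteins. Capitals mark TAATTA. The Pvalb window is chr15:78206401-78206650 on the minus strand (the table holds 2 starts, the printed one is the first), that of Gad1 chr2:70561879-70562128 on the plus strand, and that of Tbr1 chr2:61804203-61804452 on the plus strand.
Pvalb: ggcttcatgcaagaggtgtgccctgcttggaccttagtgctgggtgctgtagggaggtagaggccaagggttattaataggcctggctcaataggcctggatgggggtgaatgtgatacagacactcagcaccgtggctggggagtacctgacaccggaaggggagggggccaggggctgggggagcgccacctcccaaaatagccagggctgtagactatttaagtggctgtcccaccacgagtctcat
Gad1: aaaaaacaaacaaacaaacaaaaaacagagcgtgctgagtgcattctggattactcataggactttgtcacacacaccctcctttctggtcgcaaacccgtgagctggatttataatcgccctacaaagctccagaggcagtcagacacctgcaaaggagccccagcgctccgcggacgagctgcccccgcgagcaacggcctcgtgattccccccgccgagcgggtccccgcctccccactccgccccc
Tbr1: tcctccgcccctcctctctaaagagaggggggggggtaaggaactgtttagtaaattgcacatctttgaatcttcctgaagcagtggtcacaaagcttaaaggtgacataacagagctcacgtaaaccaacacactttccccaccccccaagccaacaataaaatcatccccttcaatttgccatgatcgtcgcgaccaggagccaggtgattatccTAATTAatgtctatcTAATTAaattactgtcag
TAATTA appeared 2 times in the Tbr1 window, at positions -33 and -18 from the start, and in neither of the other windows, and CAGATG in none of the 3. Across windows of the same length, TAATTA was found in 4.84% of all 32851 promoters in the table and in 2.79% of the 15074 promoters of tested genes. The share was 3.12% of promoters of genes beyond 2-fold toward PV and 2.82% of those beyond 2-fold toward Camk2a. CAGATG was found in 10.7% of promoters of tested genes, in 12% of those toward PV and in 12.3% of those toward Camk2a. Promoters were matched for 11764 of the 16788 genes. These matches describe letters, not binding.

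**Figure D2:**
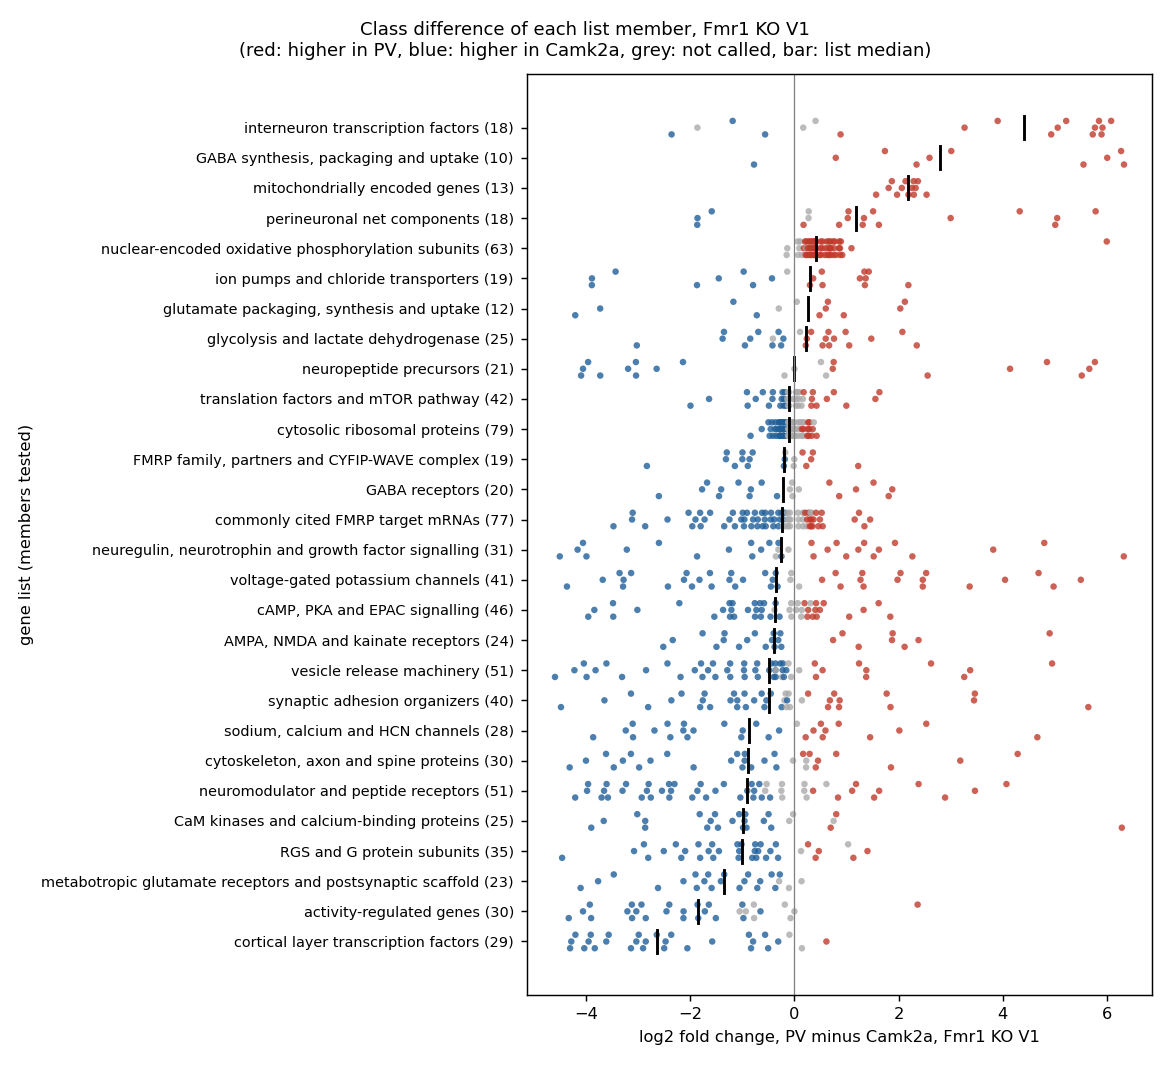
Log2 fold change of PV over Camk2a in Fmr1 KO V1 of each tested member of 28 gene lists, 1 point per gene (red, higher in PV; blue, higher in Camk2a; grey, not called), with the list median as a black bar. Interneuron transcription factors lie highest by median at 4.42, layer transcription factors lowest at -2.64, and ribosomal proteins close to 0 at -0.11.

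Genes of the inhibitory transmitter separated as a set. All 10 members of GABA synthesis, packaging and uptake passed the test, 9 higher in PV and 8 of these beyond 2-fold. Slc32a1, the vesicular GABA transporter, ranged from 859 to 1096 CPM in PV and from 5.07 to 53.2 CPM in Camk2a libraries, a log2 fold change of 6.27 (7.32 without C3). Gad2, the second GABA-synthesizing enzyme gene, differed by 5.55 (6.20 without C3). The exception was Slc6a11, a GABA transporter of astrocytes, at -0.78. Among 12 genes of glutamate packaging, synthesis and uptake, 6 were higher in PV and 4 in Camk2a libraries. Slc17a6, a second vesicular glutamate transporter, was at 1.37 to 4.13 CPM in PV and at 36.1 to 62.6 CPM in Camk2a libraries (-4.21). Those higher in PV included Slc1a3 (2.03) and Glul (0.64), which are at home in astrocytes, and Glud1 (0.95).

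GABA receptors were split by subunit. Of 20 genes, 6 were higher in PV (4 beyond 2-fold) and 10 in Camk2a libraries (5 beyond 2-fold), with a median of -0.21. Gabrd, whose subunit sits in extrasynaptic receptors, differed by 1.52, with 168 to 252 CPM against 64.5 to 86 CPM. In contrast Gabra5, the alpha subunit of tonic inhibition in pyramidal cells, ranged from 6.83 to 13.6 CPM in PV and from 34.5 to 72.8 CPM in Camk2a libraries (-2.60). Gabra2 (-1.77) and Gabrb1 (-1.68) went the same way, and Gabrg3 (1.81) and Kctd8 (1.88), an auxiliary subunit of GABA-B receptors, went toward PV. Gabra3 and Gabra4 did not pass the test, both at -0.04.

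Of 24 ionotropic glutamate receptor genes all passed, 8 higher in PV and 16 in Camk2a libraries, with 6 beyond 2-fold each way. Grin2d, an NMDA receptor subunit typical of interneurons, stood far from the rest. It ranged from 78 to 104 CPM in PV and from 2.05 to 6.67 CPM in Camk2a libraries (4.90, SE 0.24, adjusted p = 2.36e-11). The AMPA receptor subunit Gria4 differed by 1.23, with 226 to 270 CPM against 90.9 to 121 CPM, and Gria1 by 0.92, with 664 to 953 CPM against 312 to 569 CPM. Auxiliary subunits divided: Cacng2, stargazin, was higher in PV (1.89), while Cacng3 (-2.34), Cnih3 (-2.52) and Cnih2 (-1.76) were higher in Camk2a libraries. The kainate receptor gene Grik1 (2.38) and its partner Neto2 (2.12) lay toward PV and Grik4 (-1.50) toward Camk2a.

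Metabotropic glutamate receptors and the postsynaptic scaffold leaned one way, with 20 of 23 higher in Camk2a, 12 of them beyond 2-fold, and 0 higher in PV libraries. By edgeR's test 1 member was higher in PV at an unadjusted p under 0.05, and DESeq2 and limma-voom also called 0. Grm2, a presynaptic inhibitory receptor, ranged from 6.97 to 12.7 CPM in PV and from 98.5 to 163 CPM in Camk2a libraries (-3.77), and Grm8 differed by -4.11. Baiap2, an actin-binding scaffold of spines, was at 29.9 to 81.7 CPM in PV and at 403 to 598 CPM in Camk2a libraries (-3.47). Homer1, an adaptor between metabotropic receptors and the scaffold, differed by -2.13 but spread widely among Camk2a libraries, from 185 to 697 CPM. The scaffold genes Shank1 (-0.11, adjusted p = 0.312), with 774 to 1134 CPM against 834 to 1252 CPM, and Dlgap1 (0.14) did not pass.

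Calcium signalling genes leaned the same way, 19 of 25 higher in Camk2a and 3 in PV libraries, with a median of -0.99. Nrgn, neurogranin, which holds calmodulin in spines, ranged from 209 to 285 CPM in PV and from 3081 to 4191 CPM in Camk2a libraries (-3.90). Hpcal4, a neuronal calcium sensor, ranged from 64.6 to 166 CPM in PV and from 1067 to 1481 CPM in Camk2a libraries (-3.66). The buffers went opposite ways. Calb1, calbindin, was higher in Camk2a (-1.61) and Pvalb in PV, and the log2 ratio of Pvalb to Calb1 was 2.15 to 3.98 in PV and -6.43 to -3.13 in Camk2a libraries. Ncs1 (0.80) and the kinase inhibitor Camk2n2 (0.69) were the other members higher in PV.

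**Figure D3:**
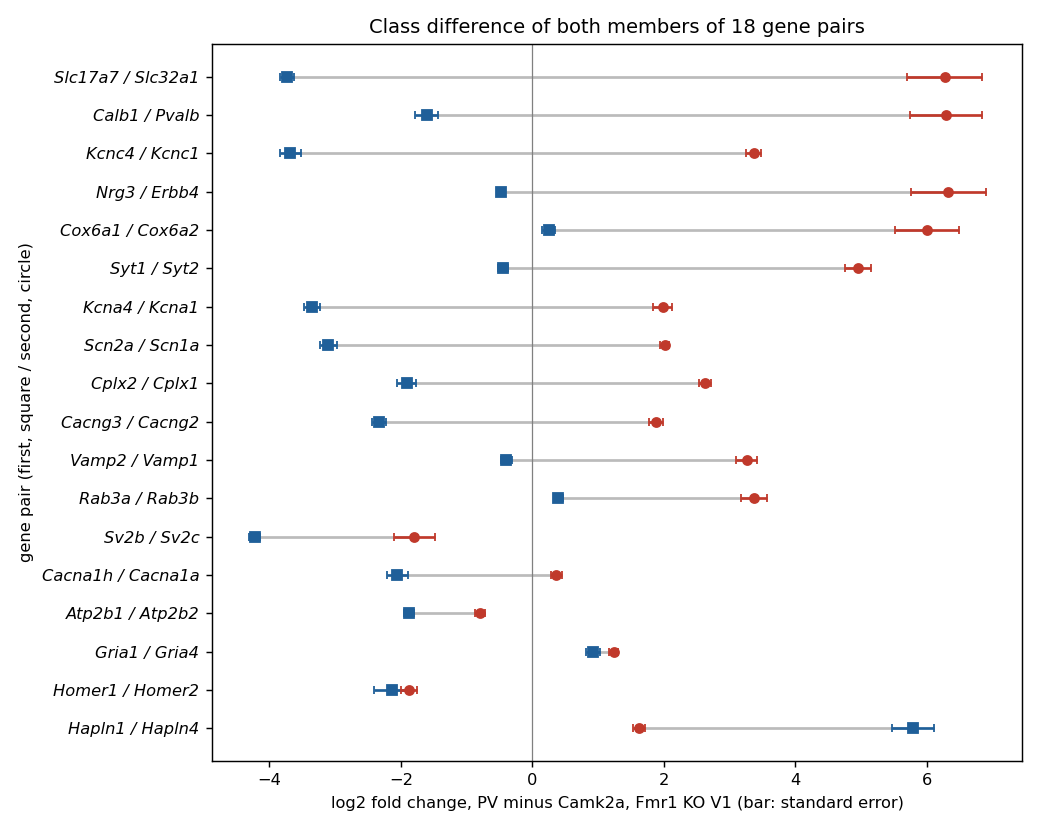
Log2 fold change of PV over Camk2a in Fmr1 KO V1 of both members of 18 gene pairs (blue square, the first named; red circle, the second; bars, SE). Members lie far apart in pairs such as Kcnc4 (-3.68) with Kcnc1 (3.36) and Scn2a (-3.11) with Scn1a (2.01), and close together for Homer1 (-2.13) with Homer2 (-1.88) and Gria1 (0.92) with Gria4 (1.23).

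Channel families were divided between the classes by member. Of 41 voltage-gated potassium channel genes, 16 were higher in PV (12 beyond 2-fold) and 22 in Camk2a libraries (15 beyond 2-fold). The Kv3 channels, which repolarize fast spikes, held the clearest case. Kcnc1 ranged from 1477 to 2139 CPM in PV and from 135 to 235 CPM in Camk2a libraries (3.36, SE 0.12, adjusted p = 1.71e-15), and Kcnc2 from 748 to 1079 CPM and from 44.4 to 95.7 CPM (4.04). Their relative Kcnc4 went the other way, with 7.85 to 16.3 CPM in PV and 129 to 152 CPM in Camk2a libraries (-3.68). The log2 ratio of Kcnc1 to Kcnc4 within a library was therefore 6.55 to 8.09 in PV and -0.17 to 0.87 in Camk2a libraries. In the Kv1 family Kcna1, an axonal channel, differed by 1.98 and Kcna4, a fast inactivating one, by -3.36. Kcnip1, a subunit of Kv4 channels, had the largest difference in the list (5.50, and 6.10 without C3), ahead of the modifier subunits Kcns3 (4.98) and Kcng4 (4.69). Kcnip3 (-3.29), of the same family as Kcnip1, was higher in Camk2a libraries. Kcnh7 did not pass the test.

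Sodium, calcium and HCN channel genes were higher in Camk2a libraries in 17 of 28 cases and in PV libraries in 10. Scn1a, the sodium channel of fast-spiking interneurons whose loss of function causes Dravet epilepsy, ranged from 566 to 766 CPM in PV and from 151 to 181 CPM in Camk2a libraries (2.01, SE 0.069, adjusted p = 6.04e-16). Scn2a, the alpha subunit typical of pyramidal axons, ranged from 43.7 to 81.4 CPM in PV and from 504 to 622 CPM in Camk2a libraries (-3.11). Each library therefore told its class by this pair, with a log2 ratio of Scn1a to Scn2a of 2.93 to 3.89 in PV and -1.89 to -1.65 in Camk2a libraries. The auxiliary calcium channel subunits Cacna2d1 (-3.87) and Cacna2d2 (4.66) split in the same manner, the former at 15.4 to 29.5 CPM in PV and 267 to 357 CPM in Camk2a libraries, the latter at 273 to 342 CPM and 7.83 to 21 CPM. The pacemaker channel Hcn2 (1.45) was higher in PV, and Cacna1h, a T-type calcium channel, in Camk2a libraries (-2.06). Scn2b did not pass at 0.05 (adjusted p = 0.539).

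Of 19 pump and chloride transporter genes, 10 were higher in PV and 8 in Camk2a libraries. The sodium-calcium exchangers Slc8a2 (-3.89) and Slc8a3 (1.35) went opposite ways, while the calcium pumps Atp2b1 (-1.87), Atp2b2 (-0.80) and Atp2b4 (-3.89) were all higher in Camk2a libraries. Slc12a5, the chloride exporter KCC2, did not pass at -0.14 (adjusted p = 0.0966), with 799 to 1079 CPM against 929 to 1264 CPM.

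The release machinery showed exchanges of paralogs. Of 51 genes, 10 were higher in PV (7 beyond 2-fold) and 36 in Camk2a libraries (18 beyond 2-fold), with a median of -0.48. Syt2, a fast calcium sensor of release, ranged from 1044 to 1726 CPM in PV and from 36.4 to 72.8 CPM in Camk2a libraries (4.95, SE 0.2, adjusted p = 8.97e-13). Syt1, its relative, was moderately higher in Camk2a libraries, 2505 to 2888 CPM against 1524 to 2124 CPM (-0.44), so that PV libraries held both sensors in quantity. Complexins, which clamp and promote fusion, were exchanged more fully. Cplx1 ranged from 2575 to 3693 CPM in PV and from 404 to 614 CPM in Camk2a libraries (2.62), and Cplx2 from 412 to 867 CPM and from 1946 to 2642 CPM (-1.91). Of the vesicle SNAREs, Vamp1 was higher in PV (3.26), with 762 to 1456 CPM against 89.6 to 142 CPM, and Vamp2 differed by -0.40 with overlapping ranges. The vesicle proteins Rab3b (3.37) and Sv2a (1.24) were higher in PV, and Sv2b (-4.23), Doc2a (-4.04) and Syt5 (-3.99) in Camk2a libraries. Sv2b ranged from 38.7 to 61.9 CPM in PV and from 850 to 970 CPM in Camk2a libraries. Unc13a (-0.06), a priming factor of vesicle fusion, did not pass the test. Of the 18 pairs of related genes in the paired plot, chosen with earlier results of these data known, the within-library ratio overlapped between classes for Gria1 with Gria4 and for Homer1 with Homer2.

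Among 40 synaptic adhesion genes, 11 were higher in PV and 23 in Camk2a libraries. Nxph1, a secreted ligand of neurexins, ranged from 190 to 242 CPM in PV and from 1.62 to 11.7 CPM in Camk2a libraries (5.64, and 6.29 without C3). Cntnap4, a neurexin relative of interneuron terminals, differed by 3.46 and Cntnap2 by 1.84. Cbln2 (-3.65) and Cbln4 (-3.14), secreted bridges between neurexins and postsynaptic receptors, and Lrfn2 (-2.81) were higher in Camk2a libraries. Nlgn2, the neuroligin of inhibitory synapses, did not pass at -0.09 (adjusted p = 0.153), with 409 to 487 CPM against 458 to 522 CPM.

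Components of the perineuronal net leaned toward PV, 13 of 18 against 3 toward Camk2a, with 6 and 3 beyond 2-fold. Acan, aggrecan, the core proteoglycan of the net, ranged from 40.6 to 80 CPM in PV and from 1.05 to 3.4 CPM in Camk2a libraries (5.01, SE 0.24, adjusted p = 1.15e-11). Hapln1, a link protein that ties it to hyaluronan, ranged from 48.6 to 73.2 CPM in PV and from 0.498 to 3.03 CPM in Camk2a libraries (5.78, and 6.39 without C3). Hapln4 (1.62), Bcan (3.0), which glia also make, and the protease Adamts8 (5.04) were also higher in PV. The exceptions included Ncan, neurocan, at 78.6 to 118 CPM in PV and 288 to 404 CPM in Camk2a libraries (-1.87), and Timp2 (-1.59), a protease inhibitor.

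Neuropeptide genes went both ways. Of 21 neuropeptide precursors 8 were higher in PV and 9 in Camk2a libraries, beside 38.3% and 35.9% of all genes. Beyond 2-fold the counts were 6 and 9 of the 21, beside 11.6% and 11.1% of all genes. Pthlh (5.77, and 6.72 without C3), parathyroid hormone-like hormone, was at 18 to 27.5 CPM in PV and at 0.154 to 1.43 CPM in Camk2a libraries, and Pnoc, the nociceptin precursor, differed by 5.52 (6.15 without C3). Bdnf ranged from 2.01 to 7.66 CPM in PV and from 44.3 to 126 CPM in Camk2a libraries (-4.06), and Penk, proenkephalin, from 3.21 to 6.46 CPM and from 22.1 to 88.5 CPM (-3.04). Adcyap1, the precursor of PACAP, differed by -3.96. Of 51 receptors for neuromodulators and peptides, 10 were higher in PV and 32 in Camk2a libraries, with a median of -0.91. The delta opioid receptor Oprd1, which binds peptides made from Penk, ranged from 93.8 to 122 CPM in PV and from 5.25 to 12.5 CPM in Camk2a libraries (3.47). Drd1 (2.38), Adra1a (2.89) and Oxtr (1.63), receptors for dopamine, noradrenaline and oxytocin, were also higher in PV. Npy1r (-3.58), a receptor for the product of Npy, Hrh1 (-3.98), Sstr1 (-3.96) and Adra2a (-3.70) were higher in Camk2a libraries. Npy1r ranged from 2.9 to 5.73 CPM in PV and from 43.5 to 56.3 CPM in Camk2a libraries.

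In cAMP signalling 13 of 46 genes were higher in PV, 1 of them beyond 2-fold, and 24 in Camk2a libraries, 12 beyond 2-fold. Phosphodiesterases, which degrade cyclic nucleotides, held the largest differences: Pde1a ranged from 18.4 to 31.1 CPM in PV and from 310 to 417 CPM in Camk2a libraries (-3.96), and Pde4b from 6.37 to 11.9 CPM and from 107 to 145 CPM (-3.84). Their relative Pde4a was higher in PV (1.05), with 211 to 273 CPM against 106 to 161 CPM. Rapgef4, the cAMP-activated exchange factor EPAC2, ranged from 289 to 355 CPM with a median of 328 in PV and from 206 to 256 CPM with a median of 238 in Camk2a libraries. Every PV library lay above every Camk2a library, and the difference was 0.49 (SE 0.058, adjusted p = 1.96e-07). Prkaca (0.43), a catalytic subunit of protein kinase A, lay close to it, and Prkar1a, a regulatory subunit, did not pass at 0.03. Of 35 RGS and G protein genes, 28 were higher in Camk2a and 5 in PV libraries, with a median of -1.02. Rgs4, which speeds the turn-off of G protein signals, ranged from 66.3 to 90.2 CPM in PV and from 589 to 776 CPM in Camk2a libraries (-3.08). Gnal, a stimulatory alpha subunit, was an exception at 1.40, with 305 to 387 CPM against 91.5 to 160 CPM.

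Growth factor genes were evenly divided, 14 of 31 each way. Erbb4, the neuregulin receptor of interneurons, ranged from 511 to 759 CPM in PV and from 3.38 to 35.6 CPM in Camk2a libraries (6.32, and 7.37 without C3). Its ligand gene Nrg3 was slightly higher in Camk2a libraries (-0.48). Fgfr2, a fibroblast growth factor receptor, was at 16.8 to 25.9 CPM in PV and at 0.847 to 2.57 CPM in Camk2a libraries (3.82). Met, the hepatocyte growth factor receptor, ranged from 0.449 to 1.94 CPM in PV and from 12.4 to 22.4 CPM in Camk2a libraries (-4.0). Ntrk2, the receptor of BDNF, did not pass at -0.12.

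FMRP is absent from both classes here, and of its paralogs and partners 5 of 19 were higher in PV and 11 in Camk2a libraries, 1 and 4 beyond 2-fold. What remained of the Fmr1 transcript ranged from 7.58 to 14.6 CPM in PV and from 6.58 to 10.6 CPM in Camk2a libraries. The ranges overlapped, and the difference of 0.32 (SE 0.14, adjusted p = 0.0401) was 0.23 with an adjusted p of 0.154 without C3. The paralog Fxr1 differed by 0.23 (adjusted p = 0.00296), and Fxr2, at 140 to 163 CPM in PV and 143 to 163 CPM in Camk2a libraries, lay at -0.00 (adjusted p = 0.95). The WAVE proteins, which nucleate branched actin in a complex with the FMRP partner CYFIP1, were exchanged: Wasf1 ranged from 47.4 to 57.2 CPM in PV and from 368 to 427 CPM in Camk2a libraries (-2.83), Wasf3 from 196 to 238 CPM and from 83.2 to 104 CPM (1.22). Abi1 (-1.14), Abi2 (-1.30) and Brk1 (-1.32), further subunits, were higher in Camk2a libraries.

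Of 77 mRNAs often cited as FMRP targets, 18 were higher in PV (3 beyond 2-fold) and 41 in Camk2a libraries (15 beyond 2-fold), with a median of -0.25. Pooled over both directions, the share that passed was near the 74.3% of all genes. By direction the list leaned toward Camk2a, with 41 of 77 there against 35.9% of all genes. Toward PV it held 18 of 77 against 38.3%. With scaling by library totals the counts were 24 toward PV and 38 toward Camk2a. In WT V1 the list had 29 toward PV and 35 toward Camk2a, with a median of -0.09, beside 39.8% and 37.5% of all genes. In the test of the difference between genotypes below, 0 of the 77 passed. By edgeR 13 of the 77 had an unadjusted p under 0.05, beside 8.88% of all genes. Arc, the spine cytoskeletal gene induced by activity, ranged from 16.2 to 207 CPM in PV and from 311 to 1500 CPM in Camk2a libraries (-3.12, SE 0.58, adjusted p = 0.000261). Hcn2 and Sv2a lay beyond 2-fold toward PV, and Macf1, a linker of actin and microtubules, differed by 1.16 without passing the 2-fold test. Shank1, Slc12a5 and Nlgn2 were among 18 targets that did not pass.

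Genes of translation differed little. Of 79 cytosolic ribosomal protein genes, 11 were higher in PV and 33 in Camk2a libraries with a median of -0.11, none beyond 2-fold, but with scaling by library totals the counts were 16 and 15 and the median 0.02. Rpl3 ranged from 137 to 167 CPM in PV and from 180 to 311 CPM in Camk2a libraries (-0.84), C3 being the lowest Camk2a library, and Rpl28 from 124 to 169 CPM and from 100 to 128 CPM (0.43). Rps6 was at 0.00 (adjusted p = 0.967). Ribosomal protein genes have many near-identical pseudogenes, so their estimated counts are less certain than those of other genes. Among 42 translation factor and mTOR pathway genes, 10 were higher in PV and 16 in Camk2a libraries with a median of -0.10, against 18 and 9 and 0.02 with library totals. Eif2ak4 (1.63), the kinase GCN2 that senses amino acid shortage, was at 38.8 to 49.2 CPM in PV and at 10.6 to 16.2 CPM in Camk2a libraries. Pik3r1 (-2.0), a regulatory subunit of phosphoinositide kinase, was at 41.5 to 62 CPM and 184 to 228 CPM.

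Most genes of oxidative phosphorylation were slightly higher in PV. Of 63 nuclear-encoded subunits of oxidative phosphorylation, 55 were higher in PV and 0 in Camk2a libraries, with a median of 0.41 and 1 beyond 2-fold. None was higher in Camk2a at an unadjusted p under 0.05 by edgeR, or at an adjusted p under 0.05 by DESeq2 or limma-voom. Among all tested genes 38.3% were higher in PV. The PV count ran from 48 to 58 over the settings tried, and 1 member, Cox8a, named after its values were seen, was called higher in Camk2a without P24 and without C4. The member beyond 2-fold was Cox6a2, an isoform of a cytochrome oxidase subunit best known from heart and muscle, at 57.9 to 101 CPM in PV and 0.324 to 4.51 CPM in Camk2a libraries (6.0, and 7.20 without C3). Its ubiquitous counterpart Cox6a1 differed by 0.25 (adjusted p = 0.0269), a call that was lost in 6 of the settings tried. More typical members were Cox5a (1.09), with 174 to 280 CPM against 82.6 to 145 CPM, and Cyc1 (0.92), cytochrome c1, with 197 to 279 CPM against 108 to 156 CPM. All 13 genes of the mitochondrial genome were beyond 2-fold higher in PV, with a median of 2.19, and 11 of the 13 passed that test without C3. These mRNAs are translated on mitochondrial ribosomes, which do not carry the tagged protein, so they are not bound to tagged ribosomes in the way of the nuclear-encoded ones. Microglial (13 of 15) and oligodendrocyte markers (15 of 17) were also higher in the PV libraries, and how the mitochondrial mRNAs came into the pulldown was not tested. mt-Nd5 ranged from 833 to 2689 CPM in PV and from 218 to 377 CPM in Camk2a libraries (2.54), and the spread among PV libraries was wide. Of 25 glycolysis genes 13 were higher in PV and 10 in Camk2a libraries. Lactate dehydrogenase was split by subunit, with Ldhb at 1086 to 1594 CPM in PV and 397 to 593 CPM in Camk2a libraries (1.48), and Ldha at 39.5 to 60.4 CPM and 352 to 483 CPM (-3.03). Ppargc1a, the coactivator PGC-1 alpha that drives mitochondrial genes, ranged from 196 to 245 CPM in PV and from 37.3 to 52.2 CPM in Camk2a libraries (2.35, SE 0.074, adjusted p = 2.18e-16).

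Activity-regulated genes were higher in Camk2a libraries in 22 of 30 cases (16 beyond 2-fold) and in PV libraries in 1, with a median of -1.85. Egr3, an immediate early transcription factor, ranged from 12 to 61 CPM in PV and from 197 to 912 CPM in Camk2a libraries (-3.90). Ptgs2 (-3.93), cyclooxygenase 2, went the same way, while Dusp1 (-0.07, adjusted p = 0.862) and Vgf (-0.00) did not pass. Dusp1 ranged from 34.2 to 144 CPM in PV and from 51.8 to 148 CPM in Camk2a libraries. Of 30 cytoskeletal genes, 8 were higher in PV and 19 in Camk2a libraries. Nefh, the neurofilament heavy chain of large axons, ranged from 383 to 815 CPM in PV and from 51.3 to 71.2 CPM in Camk2a libraries (3.18), and Ank1, an ankyrin, from 741 to 1083 CPM and from 33 to 74.2 CPM (4.29). Itpka, Baiap2, Rtn4r (-4.0), a receptor for myelin inhibitors, and its partner Lingo1 (-3.62) were higher in Camk2a libraries. Tubb3 did not pass at -0.03 (adjusted p = 0.758).

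The same contrast was then set beside that in WT V1, where 12618 of 16330 genes (77.3%) passed and 3927 (24.0%) beyond 2-fold. Beyond 2-fold, 3205 genes were shared, 84.3% of the KO list and 81.6% of the WT list, all with the same sign. Across 16235 genes tested in both, Pearson's r of the log2 fold changes was 0.965 and the standard deviation of the difference 0.35, a description over genes that are not independent replicates. The PV marker list had a median of 4.82 in WT and 5.84 in KO, with Pvalb at 4.65 and 6.29 and Gad1 at 5.24 and 6.33, and no member of the list passed the test of the difference between genotypes. The WT Camk2a libraries C18 and C19 had summed PV marker levels of 1567 and 1687 CPM, against 356.2 to 482.2 CPM in the other 6, and C3 stood apart in KO. Without C18 and C19 the WT values were 6.41 for the list, 6.26 for Pvalb and 7.26 for Gad1, beside 6.74, 7.31 and 7.29 in KO without C3.

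A test of that difference over the 34 libraries of V1 called 16 of 17319 genes (0.0924%), 13 (0.0751%) with a larger PV-minus-Camk2a value in KO and 3 (0.0173%) with a smaller one, and 1538 genes (8.88%) had an unadjusted p under 0.05. Fmr1 itself came first: the class difference was 0.32 in KO and -0.95 in WT, a difference of 1.27 (SE 0.14, adjusted p = 3.2e-06 by edgeR). Fmr1 is the knocked-out gene and its transcript was low in both KO classes, so this call restates the genotype. Among the members of every list above, Fmr1 was the only one called. Alox8, a lipoxygenase, was at 3.48 CPM ± 1.25 (SD, n = 8) in Camk2a WT and at 1.01 ± 0.362 (SD, n = 6) in Camk2a KO libraries, while PV libraries had means of 21.2 in WT and 17.4 CPM in KO. Its class difference was 2.69 in WT and 4.14 in KO, and these differed by 1.48 (SE 0.26, adjusted p = 0.00723), a call lost with limma-voom (adjusted p = 0.081). Ltbp3, a binding protein of latent TGF-beta, showed the same arrangement, with 19 to 31.4 CPM in Camk2a WT and 14.7 to 17.2 CPM in Camk2a KO libraries and PV means of 65.3 and 63.9 CPM (0.58, SE 0.1, adjusted p = 0.00723). The other genes with a positive difference named here were Galnt11 (0.36, adjusted p = 0.00723), a glycosyltransferase, Hyi (1.32, adjusted p = 0.021), Wwc2 (0.34, adjusted p = 0.021) and Inpp5f (0.42, adjusted p = 0.021), an inositol phosphatase. Negative differences were those of Emsy (-0.64, adjusted p = 0.0257), Sphk2 (-0.38, adjusted p = 0.0329), a sphingosine kinase, and Wdr81 (-0.45, adjusted p = 0.0475). Of the settings tried, Wdr81 lost its call in 28, Sphk2 in 13, Emsy in 7, and Hyi, Wwc2 and Inpp5f in 3 each. With sex taken from Y-linked genes 15 of the 16 passed and no other gene. The count fell to 7 without C3, C18 and C19, 5 of them among the 16, and ran from 7 without the PV WT library P2 to 32 without the Camk2a KO library C14.

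**Figure D4:**
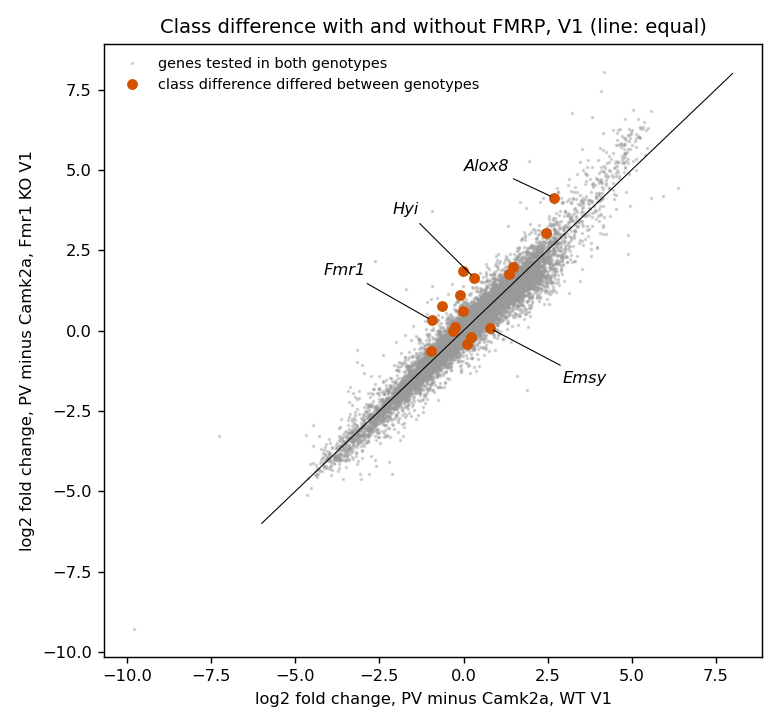
Log2 fold change of PV over Camk2a in V1 of WT (x axis) and Fmr1 KO (y axis) for each of 16235 genes, with the 16 genes called for a difference between genotypes in orange and a line where both are equal. The points follow the diagonal with r of 0.965, and Fmr1 lies off it at -0.95 in WT and 0.32 in KO.

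Within Fmr1 KO mice the class difference was also compared between areas. Since 9 PV and 6 Camk2a animals gave both areas, the fit kept the animal as a block. Of 17255 genes, 1218 (7.06%) differed, 628 (3.64%) with a larger PV-minus-Camk2a value in V1 and 590 (3.42%) with a larger value in S1. In 1030 of the 1218 the Camk2a libraries changed more between areas than the PV libraries, with a median absolute change of 0.37 in Camk2a and 0.12 in PV libraries, against 0.11 and 0.10 over all genes tested. The imbalance was smaller without P9 and P24. Without both animals 1818 genes passed, 1093 of them among the 1218, and the Camk2a libraries changed more in 1043 of the 1818, with medians of 0.23 in Camk2a and 0.19 in PV libraries. Without the animal block 658 genes passed, all among the 1218.

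Kcnab3, a beta subunit of Kv1 channels, was at 447 CPM ± 78.5 (SD, n = 10) in V1 and 522 ± 46.5 (SD, n = 10) in S1 of PV libraries. In Camk2a libraries it was at 83.5 ± 9.48 (SD, n = 6) in V1 and at 278 ± 25.5 (SD, n = 7) in S1. The class difference was thus 2.46 in V1 and 0.92 in S1, and the areas differed by 1.50 (SE 0.11, adjusted p = 9.29e-11 by limma). Scn1a was at 167 CPM in V1 and 331 CPM in S1 of Camk2a libraries and at 662 and 690 CPM in PV libraries, a difference between areas of 0.92 (SE 0.1, adjusted p = 2.71e-07). Its class difference was 2.01 in V1 and 1.07 in S1. Abcd2, a peroxisomal transporter, changed sign, with 0.55 in V1 and -0.58 in S1 (adjusted p = 1.59e-08 for the difference). The PV libraries of Abcd2 were at 58.6 and 69.5 CPM, and the Camk2a libraries at 41 and 104 CPM.

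The opposite pattern was seen for Cpne6, a calcium-dependent membrane-binding protein of spines, with 160 CPM in V1 and 76.4 CPM in S1 of Camk2a libraries and 101 and 103 CPM in PV libraries. Its class difference was -0.65 in V1 and 0.43 in S1, a difference of -1.08 (SE 0.092, adjusted p = 1.51e-09). Hpcal1, a calcium sensor, also changed sign, with -0.96 in V1 and 0.29 in S1 (adjusted p = 2.35e-09). Tox, with 35.2 CPM in V1 and 15.8 CPM in S1 of Camk2a libraries, had a difference between areas of -1.45, and Camk2d, with 120 and 63 CPM, one of -0.78. Etv6 (-0.95) was also negative, and Tuba8 (1.0) and Zbtb7b (1.01) were positive. Over all genes 7.06% passed this test. Among the lists, of which a selection is given, 12 of 41 potassium channel genes passed, 8 with positive and 4 with negative values. So did 14 of 51 release genes (10 and 4), 6 of 28 sodium, calcium and HCN channel genes (5 and 1) and 11 of 29 layer factors (6 and 5). Calls also fell on 9 of 40 adhesion genes (1 and 8) and 9 of 31 growth factor genes (6 and 3). They included 6 of 24 AMPA, NMDA and kainate receptor genes (1 and 5) and 6 of 25 CaM kinase and calcium-binding genes (3 and 3). For cAMP signalling 3 positive and 6 negative calls were made among 46 genes, and for neuromodulator and peptide receptors 5 and 2 among 51. Pumps and chloride transporters had 3 and 1 among 19. Below the share of all genes lay oxidative phosphorylation subunits (0 and 4 of 63) and cytosolic ribosomal proteins (0 and 2 of 79). By limma none passed of 17 oligodendrocyte, 15 microglial and 16 vascular markers, of which 6, 2 and 4 had an unadjusted p under 0.05. Astrocyte markers passed in 4 of 18 cases, 4 positive and 0 negative (Agt, Aldh1l1, Slc1a2 and Slc4a4), and oligodendrocyte precursor markers in 1 of 11 (Matn4, positive). Of the named members, Kcna1 (0.56), Cplx1 (0.39), Vamp1 (0.58) and Drd1 (0.89) had a larger class difference in V1, each call being lost without the animal block and that of Kcna1 also without P9 and P24, and Gabra5 (-1.0) and Cntnap4 (-0.92) had negative values.

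**Figure D5:**
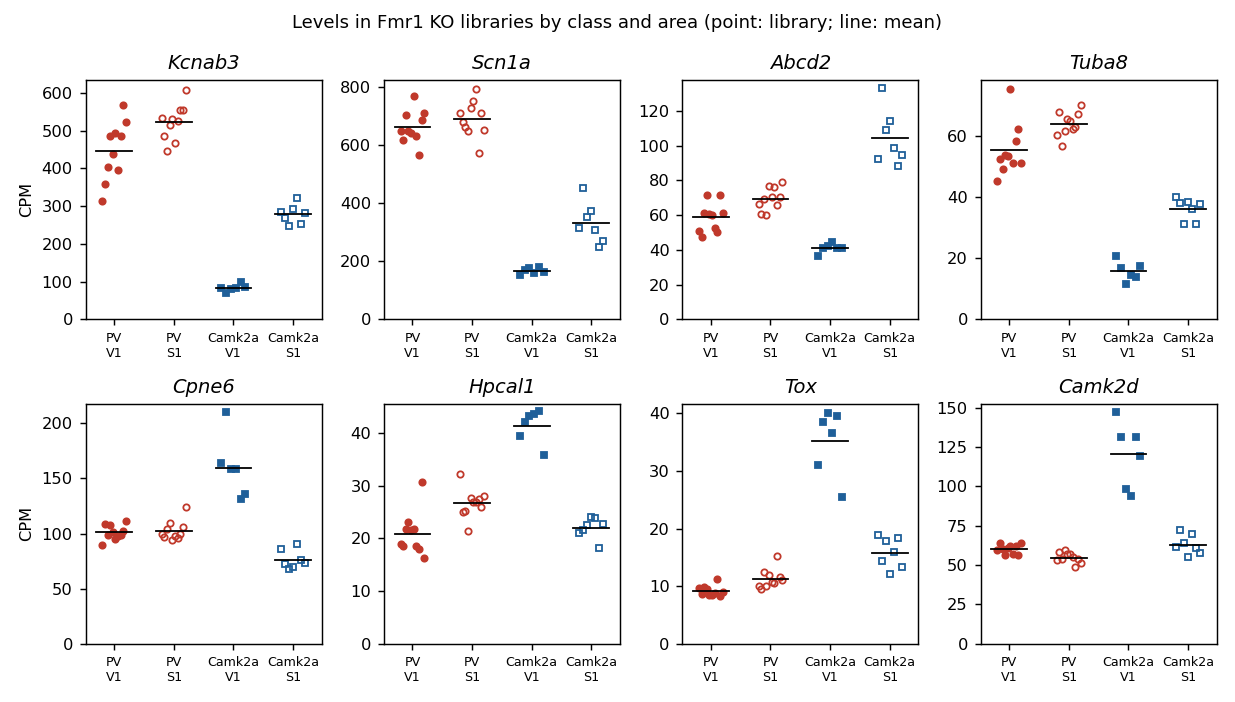
CPM of 8 genes in each Fmr1 KO library of V1 (filled) and S1 (open), with PV libraries in red (10 in each area) and Camk2a libraries in blue (6 in V1, 7 in S1) and group means as lines. Camk2a means are 83.5 CPM in V1 and 278 CPM in S1 for Kcnab3, and 160 and 76.4 CPM for Cpne6, while PV means are 447 and 522 CPM and 101 and 103 CPM.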

How the data were processed

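Libraries were RiboTag immunoprecipitates of 10 PV and 6 Camk2a Fmr1 KO V1 samples, and the homogenate is not analysed here. The authors deposited a table of estimated counts for 17634 genes, of which 71.1% of values were not whole. Per the submitters' processing notes STAR, Salmon, limma and mm10 were used, but their roles and versions are not given in the sources used here, nor is the rule by which low genes were left out of the table. The Ovation kit, per the labels' protocols, adds no molecular identifiers, and the sources do not state counting by strand, so overlapping and antisense genes cannot be separated. Groups came from the sample titles.

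Counts were rounded to whole numbers. GENCODE M21 named 17614 genes. With R 4.3.3 and edgeR 4.0.16, genes passing filterByExpr were fitted with TMM scaling, labelled sex as a covariate and the robust quasi-likelihood test, with Benjamini-Hochberg adjustment over all genes tested at 0.05. glmTreat tested against a 2-fold difference. Class by genotype was an interaction over 34 V1 libraries. Class by area was fitted over 33 KO libraries with limma 3.58.1 (voom, duplicateCorrelation on the animal, consensus 0.23). DESeq2 1.42.0 and limma-voom, other scalings, filters, sex assignments and left-out libraries were alternatives.

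The lists and comparisons were chosen with earlier results of these data known. Named genes were Pvalb, Camk2a, Fmr1, Rapgef4, both genes of the related pairs, the 10 genes with the largest change per direction beyond 2-fold, per list up to 4 called members per direction and up to 2 uncalled ones, and the 8 genes per direction with the smallest p of each interaction, all with a mean of at least 5 CPM (pairs and always-named genes excepted). Of these, a selection is described, and a few are not reported here. Within a group each library is from a separate animal by its code, and most KO animals gave both areas. Depth of 34.21 to 49.11 M counts limits low genes only, and library spread sets the error.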

Additional observations from a re-analysis of the deposited data

Results flagged for a closer look

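Within groups of 4 to 10 libraries, a library stood apart where its gap to the nearest other library, as a share of the group's range, passed Dixon's 95% critical value, which chance alone does in about 1 in 20 groups. Of 414 sets, each 1 named gene in 1 group, 32 had such a library, 5 of 207 in the PV group and 27 of 207 in the Camk2a group. Among the 6 Camk2a libraries the library C3 was the highest for 20 named genes. The gap took 0.75 of the range for Pvalb, 0.7 for Gad1, 0.75 for Slc32a1, 0.86 for Erbb4, 0.64 for Lhx6, 0.69 for Tac1, 0.89 for Tmem132c, 0.85 for Akr1c18 and 0.68 for Adamtsl5. It took 0.71 for Sp9, 0.69 for Grin2d, 0.64 for Kcnc2, 0.73 for Syt2, 0.73 for Hapln1, 0.8 for Pthlh, 0.79 for Drd1, 0.79 for Cox6a2, 0.85 for Zbtb7b, 0.72 for Dlx2 and 0.89 for Rab3b. C3 was the lowest for Kcnc4 (0.74) and Rpl3 (0.76). Elsewhere in the Camk2a group, C6 was the lowest for Reln (0.79) and Kcna1 (0.68), C14 the highest for Pde4a (0.65), C7 the lowest for Abi1 (0.65) and C4 the highest for Etv6 (0.67). In the PV group P12 was the lowest for Igfbp6 (0.52), P5 the highest for Adcyap1 (0.52), P23 the highest for Sst (0.52) and the lowest for Reln (0.51), and P25 the lowest for Pde4a (0.51).

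The class difference (log2, PV minus Camk2a) differed between Fmr1 KO and WT by the interaction test, given as KO minus WT, for Fmr1 (1.27), Galnt11 (0.36), Alox8 (1.48), Ltbp3 (0.58), Hyi (1.32), Wwc2 (0.34), Inpp5f (0.42), Emsy (-0.64), Sphk2 (-0.38) and Wdr81 (-0.45).

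In Fmr1 KO mice it differed between V1 and S1, given as V1 minus S1, with positive values for Tac1 (2.56), Kcnab3 (1.5), Abcd2 (1.09), Zbtb7b (1.01), Tuba8 (1.0), Scn1a (0.92), Cbln4 (0.99), Drd1 (0.89), Kctd8 (0.86), Kcnc2 (0.72), Lmo3 (0.59), Vamp1 (0.58), Slc1a2 (0.57), Kcna1 (0.56), Sox5 (0.52), Cux1 (0.51), Cplx2 (0.51), Rgs4 (0.51), Ltbp3 (0.51), Kcnh7 (0.45), Scn2b (0.39), Cplx1 (0.39) and Atp2b2 (0.38). Values were negative for Tox (-1.45), Hpcal1 (-1.26), Reln (-1.17), Grik1 (-1.1), Cpne6 (-1.08), Gabra5 (-1.0), Etv6 (-0.95), Cntnap4 (-0.92), Camk2d (-0.78), Adcyap1 (-0.78), Etv1 (-0.52), Lrfn2 (-0.48), Gria1 (-0.37), Cyc1 (-0.28) and Prkaca (-0.21). The call of Tac1, for which C3 stood apart, was lost without the animal block (adjusted p = 0.105), without the sex covariate (0.0563) and without C3 (0.0525), by limma. That of Gria1, -0.37 here, became -0.24 without P9 and P24 and was lost.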

How the results depend on the processing

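The class comparison in Fmr1 KO V1 called 12000 to 12507 genes, and 3571 to 3852 beyond 2-fold, when single libraries were left out, and 12258 to 12995 and 3190 to 3943 under the other settings (DESeq2, limma-voom, other scaling, filter and sex terms, all V1 libraries, or without P9 and P24). The genotype interaction, 16 genes, gave 52 with DESeq2 (14 of the 16), 7 without C3, C18 and C19, and 7 to 32 with single libraries left out: 7 without P2 of PV WT, 8 without C4, 10 without C7, 29 without C6, 32 without C14 and 10 without C19 of Camk2a WT. The area interaction, 1218 genes, gave 658 without the animal block and, chosen after seeing the data, 1818 without P9 and P24 and 1204 with sex by Y-linked genes (15 in the genotype interaction); the cause of these shifts was not tested. With library totals only, the class difference of Fxr2, close to 0 otherwise, became 0.12 and passed the test. Of the 183 called genes among the 207 named, 180 kept their call in every setting, the exceptions being Fmr1 (lost in 9 settings), Cox6a1 (6) and Sphk2 (1). In the genotype interaction Wdr81 lost its call in 28 settings, Sphk2 in 13, Emsy in 7, Hyi, Wwc2 and Inpp5f in 3 each and Alox8 in 1. In the area interaction 14 named genes lost their call in at least 1 setting. Besides Fxr2, 11 uncalled named genes, among them Sst, passed in at least 1 setting. No paired analysis of the classes was possible because they come from different animals, while the area comparison kept the animal as a block. Depth limits only genes near 0 CPM. Strand and sex mismatch limit single genes. Class purity bears on whole lists too, since excitatory markers were present in every PV library, and its part in the differences was not tested.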
